A study of Mus musculus with 32 samples.

Results

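Cadherins and protocadherins are cell surface proteins whose extracellular repeats bind calcium and hold neighboring cells together. The genes described here were all rows of the striatal count tables named Cdh followed by a number, or Pcdh, apart from the endothelial cadherin Cdh5, with a mean of at least 0.5 CPM (counts scaled to a common library size) over 16 mice. Of 23420 gene rows, 93 matched by name and 85 reached that mean. There were 30 non-clustered genes and 55 clustered protocadherins, of which 12 belong to Pcdha, 21 to Pcdhb and 22 to Pcdhg. The 8 genes under the minimum were Cdh1, Cdh3, Cdh17, Cdh26, Pcdha4, Pcdha4-g, Pcdha8 and Pcdhb1. Just inside it were Cdh16 at 0.653 CPM and Pcdha1 at 0.842 CPM, and just outside it Pcdha8 at 0.370 CPM and Cdh26 at 0.276 CPM. All 85 members passed the filter on low counts.

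Classical type I and type II cadherins bind catenins inside the cell and through them the actin cytoskeleton, and in the brain they take part in the sorting of neurons and the building of synapses. The delta protocadherins are non-clustered genes with their own cytoplasmic motifs and region-specific patterns in the brain. In the clustered protocadherins each neuron draws a set of isoforms by promoter choice, and the isoforms bind only their like and serve the recognition of a neuron's own branches. A Pcdha or Pcdhg transcript joins 1 variable exon to constant exons at its 3′ end that the whole cluster shares, whereas a Pcdhb gene has its coding sequence in a single exon.

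RNA from bilateral striatal punches was sequenced for 8 naïve B6.D2 congenic mice and 8 naïve B6 wild-type littermates. The congenic mice are Line 4a, which carry a segment of chromosome 11 derived from the inbred strain DBA/2J (D2) on 1 chromosome of the pair, with C57BL/6J (B6) as the background of both groups. The line was made to map a locus for sensitivity to methamphetamine, and no mouse had received the drug. The labels give an age of about 50 days, and the home cage and sex of each mouse were not in the labels used here. Array genotyping in the study found a D2 allele outside chromosome 11 at a single marker, on chromosome 3, in mice of both genotypes. The next array markers on either side were B6 in the mice genotyped, and the members Pcdh10 and Pcdh18, also on chromosome 3, lie outside the span between them. None of the 85 members lies on chromosome 11. In a bulk sample, fewer cells of a type and less RNA per cell cannot be told apart.

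Reads counted on genes ran from 19032826 to 33748353 in B6 mice and from 24912413 to 32085311 in congenic mice. Of the listed markers of striatal projection neurons, 14 were tested, none passed at an unadjusted p under 0.05, and Ppp1r1b, for example, ran from 1052 to 1748 CPM in B6 and from 1155 to 1934 CPM in congenic mice. The library of B6.D2 congenic mouse 1 stood apart from the rest. Of the alignments tallied in it, 27.3% came from reads with more than 1 alignment, against at most 21.4% elsewhere, and 10.2% fell outside annotated genes. Genes with the shortest exon sequence (up to 2.33 kb) had a median log2 ratio of 0.43 in this mouse to the other congenic mice, and those with the longest (from 5.62 kb) of -0.35. In the 15 other mice, each set against its own genotype, these medians lay between -0.05 and 0.06 for the shortest and between -0.07 and 0.04 for the longest genes. The count of called members and many of the values below are given with and without this mouse. Where no value without it is given, the value is from all 16 mice unless a smaller set is named. The library of B6 mouse 8 had 11.3% of its tallied alignments outside genes, against 14.5% to 15.9% in the 14 mice that remain.

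No cadherin or protocadherin differed between the genotypes at a false discovery rate (FDR) of 5%. With edgeR's quasi-likelihood test over 15589 genes, 13 of the 85 members reached an unadjusted p under 0.05, and in all 13 the level was lower in congenic mice. Of all genes tested, 5.14% reached this level with lower and 4.86% with higher values in congenic mice. At an FDR of 5% the count was 0 of 85 members, against 0.00641% of all genes (1 gene), and the lowest FDR of a member was 0.385. The study reported more genes at that FDR, from a fit with home cage as a covariate. That covariate could not be fitted here, and its part in the difference was not tested. An exact permutation test over the 12870 ways to split 16 mice into groups of 8 put 14 members under 0.05, all lower in congenic mice, against 6.36% of all genes that were lower at that level, and none at an FDR of 5% (lowest 0.261). In no member did the 8 congenic mice all lie below or all above the 8 B6 mice, a pattern that 0.0257% of all genes had in the lower direction.

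The fitted log2 fold change (congenic minus B6) was negative for 76 of the 85 members, with a median of -0.10. Over all genes tested 45.1% of values were negative and the median was 0.01. Without congenic mouse 1 the count of negative values was 54 of 85 and the median -0.05, while 50.4% of all genes were negative. The members under 0.05 then numbered 13, of which 12 were lower in congenic mice, against 7.54% of all genes that were lower at that level. Of these 13, 10 were among the calls made with all mice, Pcdh12, Pcdh18 and Pcdhb16 were no longer called, and Pcdhac2, Pcdhb20 and Pcdhgb4 were added. Pcdhgb4 was the added gene with the higher level in congenic mice.

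**Figure D1:**
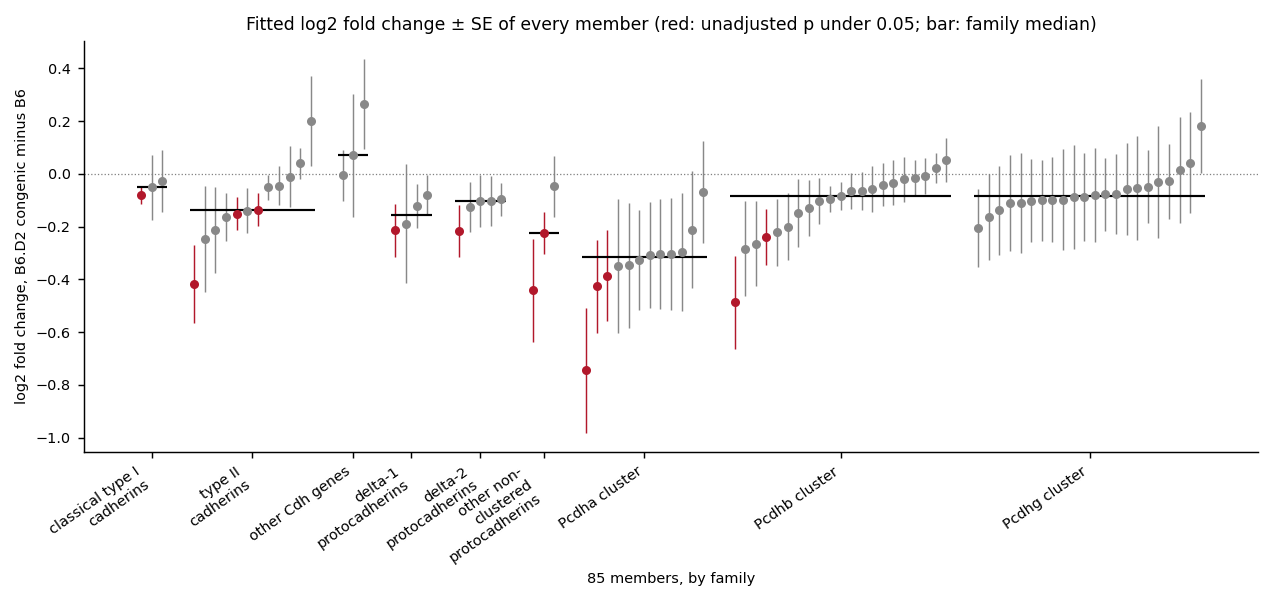
Fitted log2 fold change of each of the 85 members (congenic minus B6, y axis, bars are the standard error) grouped by family along the x axis, with the 13 members at an unadjusted p under 0.05 in red and the family median as a black bar. The red points all lie below 0, and the Pcdha family has the lowest median of the 3 clusters, at -0.32.

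The 13 members were 8 non-clustered genes (Cdh12, Pcdh20, Cdh22, Cdh2, Pcdh12, Pcdh18, Cdh11 and Pcdh7) and 5 clustered ones (Pcdha11, Pcdhb21, Pcdha5, Pcdhb16 and Pcdha9). This was 8 of 30 non-clustered (26.7%) and 5 of 55 clustered members (9.09%), against 5.14% of all genes lower at that level. All 13 had negative log2 fold changes within the 8 mice sequenced on lanes 5 and 6 and also within the 8 mice of lanes 7 and 8. They were picked from the fit of these same 16 mice, so the shared sign is not independent support. Within lanes 5 and 6, 2 of them were under 0.05, and within lanes 7 and 8, 3 of them. Of all genes, 1.56% in the former fit and 4.66% in the latter were lower at that level. Of the 13, Pcdha11, Cdh12, Pcdh20 and Pcdhb21 were under 0.05 in each of the 16 fits that left out 1 mouse. The other calls depended on single mice, and the sign was negative in every such fit. Cdh22 was lost without B6 mouse 2 (-0.12), Pcdha5 without B6 mouse 8 (-0.38) and Cdh2 without B6 mouse 1 (-0.06). Pcdh12 was lost without B6 mouse 1, 2 or 6 or congenic mouse 1, with values from -0.52 to -0.32 over the 16 fits. Pcdha9 was lost without B6 mouse 1, 2, 3 or 7 or congenic mouse 2 or 7 (-0.43 to -0.26). Pcdhb16 was lost without B6 mouse 3, 6 or 8 or congenic mouse 1, 2, 6 or 8 (-0.29 to -0.18), and Pcdh18 without B6 mouse 1, 4 or 6 or congenic mouse 1, 2, 5 or 6 (-0.26 to -0.16). Cdh11 was lost without B6 mouse 2, 3, 4, 6 or 7 or congenic mouse 3 or 6 (-0.16 to -0.09), and Pcdh7 without B6 mouse 1, 3, 5 or 8 or congenic mouse 4, 6 or 8 (-0.25 to -0.14).

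Promoters of 21 of the 30 non-clustered members were in the RefSeq table for GRCm38.p6 (mm10), and the 5 shown are those of all called non-clustered genes that the table holds. Each runs 5′ to 3′ on the strand of the gene, from 250 bases before an annotated start to 50 bases after it. The Cdh12 and Pcdh7 windows lie wholly inside their genes, which begin at 20448878 on chromosome 15 and at 57716145 on chromosome 5. They are therefore not at the 5′ ends of these genes. Capitals mark matches on either strand to the GC box (GGGCGG), the E-box (CAGGTG), the cAMP response element (TGACGTCA) or the TATA box (TATAAA).
Cdh12, chr15:21111202-21111501, plus strand: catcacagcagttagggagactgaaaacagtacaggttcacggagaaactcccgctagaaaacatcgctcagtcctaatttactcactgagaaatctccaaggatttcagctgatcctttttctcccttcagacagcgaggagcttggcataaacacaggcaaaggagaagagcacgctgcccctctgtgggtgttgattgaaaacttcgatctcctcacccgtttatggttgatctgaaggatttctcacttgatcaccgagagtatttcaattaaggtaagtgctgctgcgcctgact
Pcdh20, chr14:88471347-88471646, minus strand: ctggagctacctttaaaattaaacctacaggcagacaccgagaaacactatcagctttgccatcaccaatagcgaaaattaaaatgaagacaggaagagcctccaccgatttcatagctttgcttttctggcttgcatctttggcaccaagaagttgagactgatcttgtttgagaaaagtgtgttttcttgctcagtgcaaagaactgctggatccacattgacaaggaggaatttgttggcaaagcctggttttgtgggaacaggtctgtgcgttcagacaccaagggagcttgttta
Cdh22, chr2:165234688-165234987, minus strand: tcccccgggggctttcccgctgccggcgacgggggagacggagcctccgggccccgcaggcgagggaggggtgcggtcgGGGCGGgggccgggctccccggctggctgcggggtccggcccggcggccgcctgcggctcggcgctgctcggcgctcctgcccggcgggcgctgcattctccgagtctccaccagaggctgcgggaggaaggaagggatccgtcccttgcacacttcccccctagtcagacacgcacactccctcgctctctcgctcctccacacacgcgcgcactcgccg
Pcdh18, chr3:49757267-49757566, minus strand: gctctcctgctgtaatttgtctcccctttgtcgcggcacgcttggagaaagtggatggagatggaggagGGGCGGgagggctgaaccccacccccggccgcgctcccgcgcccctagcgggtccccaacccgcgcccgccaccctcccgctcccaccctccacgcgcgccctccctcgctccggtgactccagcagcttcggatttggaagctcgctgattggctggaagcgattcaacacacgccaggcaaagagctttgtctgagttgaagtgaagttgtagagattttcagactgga
Pcdh7, chr5:57717831-57718130, plus strand: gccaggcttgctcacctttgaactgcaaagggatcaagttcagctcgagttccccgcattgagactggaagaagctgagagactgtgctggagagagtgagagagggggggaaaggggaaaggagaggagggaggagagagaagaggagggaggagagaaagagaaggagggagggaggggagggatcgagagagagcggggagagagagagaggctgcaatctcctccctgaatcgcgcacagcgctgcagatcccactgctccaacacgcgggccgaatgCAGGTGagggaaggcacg
The Cdh12 and Pcdh20 windows hold no match and have a G and C content of 46.7% and 43.7%. The Cdh22 window, at 76.3%, and the Pcdh18 window, at 63.0%, each hold 1 GC box, 171 and 181 bases before the start. The Pcdh7 window, at 59.3%, holds 1 E-box. Of 32851 promoters in the table, 35.7% hold the GC box, 20.2% the E-box, 13.6% the TATA box and 1.8% the cAMP response element, and the median G and C content is 52.7%. Among the 24 windows of the 21 members, 9 hold the GC box, 5 the E-box, 2 the TATA box and 0 the cAMP response element. No motif searched occurs in all 5 windows shown.

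On the scale of CPM per kb of exon, Pcdh9 had the highest level of the non-clustered members, at 34.4 ± 3.65 CPM per kb (SD over 16 mice), followed by Pcdh10 at 20.8 ± 1.77 CPM per kb. For both, the interval of mean ± 1 SD did not reach that of the next gene. These levels depend on the exon length annotated for each gene, which was 3.71 kb for Pcdh9 and 10.6 kb for Pcdh10. In CPM not divided by length the order of the 2 was reversed, with means of 127.9 CPM for Pcdh9 and 221.9 CPM for Pcdh10. Next came Pcdh7, Cdh9 (13.7 CPM per kb) and Cdh11 (13.5 CPM per kb), which did not differ beyond their spread, and then Cdh2 at 11.5 ± 0.483 CPM per kb. From Cdh2 down to Cdh20, at 6.03 CPM per kb, each gene overlapped its neighbor within 1 SD, and the same held from Cdh4, at 4.16 CPM per kb, down to Cdh15, at 0.736 CPM per kb. At the low end stood the kidney cadherin Cdh16 (0.197 CPM per kb), Pcdh12 (0.152 CPM per kb) and Cdh23 (0.0605 CPM per kb). Clustered genes were left out of this order because reads on their shared exons were not counted.

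Of the classical type I cadherins 3 were members. Cdh2, N-cadherin, is the main classical cadherin of neuronal synapses and lies on chromosome 18 (mm10, 16588877 to 16809246). Its level in B6 mice was 91.9, 95.2 and 102 CPM (lowest, median and highest of 8), and in congenic mice 87.7, 90.9 and 93.2 CPM. All 8 congenic mice were below the B6 median and 5 were below the lowest B6 mouse. For Cdh2 the log2 fold change was small at -0.08 ± 0.03 (SE), with an edgeR FDR of 0.458, an exact permutation p of 0.00373 and a permutation FDR of 0.267. Within lanes 5 and 6 the log2 fold change was -0.12 and within lanes 7 and 8 it was -0.05. Cdh4, R-cadherin, had a log2 fold change of -0.05 ± 0.12 and Cdh15, the cadherin of muscle precursor cells, of -0.03 ± 0.12. Neither was called, and their groups overlapped over most of their range.

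Among the 12 type II cadherins, 10 had negative log2 fold changes, 3 of them under 0.05, and 2 had positive ones (Cdh19 and Cdh20), with a family median of -0.14. Without congenic mouse 1 the count was 9 of 12 and the median -0.09. Cdh12, a cadherin found mainly in brain, ran from 3.84 over a median of 5.15 to 6.43 CPM in B6 mice and from 2.26 over 4.09 to 4.89 CPM in congenic mice. The 8 congenic mice were all below the B6 median, yet only 3 were below the lowest B6 mouse. Cdh12 had a log2 fold change of -0.42 ± 0.15 (edgeR FDR = 0.406, exact permutation p = 0.0207), and without congenic mouse 1 it was -0.34. Cdh22, a cadherin of pituitary and brain, measured 27.1, 32.7 and 37.5 CPM in B6 mice and 26.8, 28.3 and 32.9 CPM in congenic mice. Here 6 congenic mice were below the B6 median and the ranges overlapped widely. Cdh22 had a log2 fold change of -0.15 ± 0.06 (edgeR FDR = 0.454, exact permutation p = 0.0309). Cdh11, first known from bone, measured 56.4, 58.9 and 65.5 CPM in B6 mice and 41.3, 55.97 and 59.5 CPM in congenic mice, the lowest of them mouse 1. Cdh11 had a log2 fold change of -0.14 ± 0.06 (edgeR FDR = 0.480, exact permutation p = 0.0158) and -0.09 without that mouse.

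The 9 other type II cadherins were not called. Cdh9, which takes part in building hippocampal synapses, and its close relative Cdh10 had log2 fold changes of -0.05 ± 0.07 and -0.05 ± 0.05. Cdh8, likewise a synaptic cadherin, had -0.16 ± 0.09, with 61.2 to 86.3 CPM in B6 and 44.2 to 68.9 CPM in congenic mice. Cdh6 differed mainly in 1 library. It measured 1.25 CPM in congenic mouse 1 and 4.63 to 6.04 CPM in the 7 other congenic mice, and its log2 fold change moved from -0.25 ± 0.20 to -0.10 without the former. Cdh24 had -0.21 ± 0.16, Cdh18 -0.14 ± 0.09, Cdh7 -0.01 ± 0.12 and Cdh20 0.04 ± 0.06. Cdh19, known from glia of the neural crest, had the highest value of the family, 0.20 ± 0.17, with 1 B6 mouse (mouse 8) at 4.75 CPM and the 7 others between 11.2 and 14.7 CPM.

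Of the remaining Cdh genes none was called. Cdh13, T-cadherin, is anchored to the membrane by lipid and has no cytoplasmic tail. It had a log2 fold change of -0.01 ± 0.10 with all mice and 0.07 without congenic mouse 1, which held 46.1 CPM against 74.2 to 88.8 CPM in the other congenic mice. Cdh16 was highest in congenic mouse 1, at 1.13 CPM against 0.525 to 0.764 CPM in the other congenic mice. Cdh16 and Cdh23 had log2 fold changes of 0.26 ± 0.17 and 0.07 ± 0.23 and lay close to the minimum level.

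**Figure D2:**
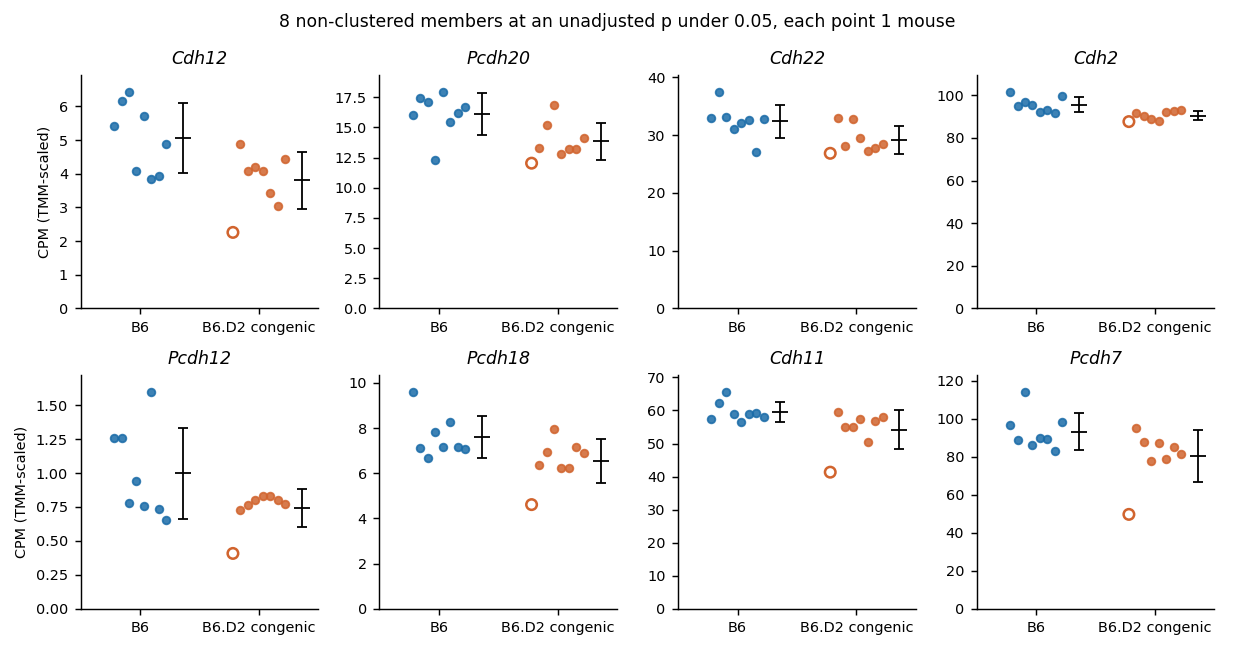
Level of the 8 called non-clustered members in each mouse (TMM-scaled CPM from 0, y axis) for B6 (blue) and B6.D2 congenic mice (orange, with mouse 1 as an open circle), and the mean with SD of 8 mice in black. The groups overlap in every panel, and congenic mouse 1 is the lowest congenic mouse in all 8.

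All 4 delta-1 protocadherins had negative log2 fold changes, with 1 called and a family median of -0.15 (-0.06 without congenic mouse 1). Pcdh7, which acts in axon growth, measured 82.8, 89.8 and 114 CPM in B6 mice and 49.7, 83.3 and 95.3 CPM in congenic mice. Congenic mouse 1 held the lowest level, and 4 congenic mice were below the lowest B6 mouse. Pcdh7 had a log2 fold change of -0.21 ± 0.10 (edgeR FDR = 0.487, exact permutation p = 0.0272), and without mouse 1 it was -0.14 (edgeR FDR = 0.338). Pcdh9, the highest non-clustered member per kb, had -0.08 ± 0.08, and Pcdh11x had -0.12 ± 0.08. Pcdh1 measured 11.2 CPM in congenic mouse 1 and 61.5 to 70.4 CPM in the 7 others. The Pcdh1 value of -0.19 ± 0.23 became -0.03 without that mouse.

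All 5 delta-2 protocadherins also had negative values, with a family median of -0.10 and -0.07 without congenic mouse 1. Pcdh18, on chromosome 3 (mm10, 49743291 to 49757383), binds the adaptor Dab1. It measured 6.68, 7.14 and 9.59 CPM in B6 mice and 4.61, 6.62 and 7.94 CPM in congenic mice. Congenic mouse 1 again held the lowest level, and 4 congenic mice were below the lowest B6 mouse. Pcdh18 had a log2 fold change of -0.22 ± 0.10 (edgeR FDR = 0.476, exact permutation p = 0.0360), and without mouse 1 the value was -0.16 and not called. Pcdh10, which links to the actin regulator WAVE and is also on chromosome 3, had -0.10 ± 0.06, at 209 to 247 CPM in B6 and 164 to 238 CPM in congenic mice. Pcdh17, a protocadherin of corticobasal ganglia pathways, had -0.10 ± 0.10, and -0.03 without congenic mouse 1. Pcdh19, the gene of an X-linked epilepsy, had -0.12 ± 0.09, and Pcdh8, whose product is induced by neuronal activity, -0.10 ± 0.10.

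Of the other non-clustered protocadherins Pcdh20 and Pcdh12 were called. Pcdh20 measured 12.3, 16.45 and 17.95 CPM in B6 mice and 12.04, 13.3 and 16.9 CPM in congenic mice. B6 mouse 4, at 12.3 CPM, lay inside the congenic range and the 7 other B6 mice between 15.5 and 17.95 CPM. Pcdh20 had a log2 fold change of -0.22 ± 0.08 (edgeR FDR = 0.406, exact permutation p = 0.0202) and -0.20 without congenic mouse 1. Pcdh12, a protocadherin of endothelial cells, was close to the minimum level, with 0.655, 0.859 and 1.596 CPM in B6 and 0.408, 0.785 and 0.830 CPM in congenic mice. All congenic mice were below the B6 median, and the B6 mice spread more widely. For Pcdh12 the log2 fold change was -0.44 ± 0.19 (edgeR FDR = 0.472, exact permutation p = 0.0848). Of 12 endothelial and mural markers 2 (Ly6c1 and Esam) were higher in congenic mice at an unadjusted p under 0.05 and none was lower. Of all genes, 4.86% were higher at that level. Summed levels of the markers were 411.5 to 610 CPM in B6 and 510 to 604.5 CPM in congenic mice. Without congenic mouse 1 the log2 fold change of Ly6c1 went from 0.55 to 0.18, and Esam was no longer under 0.05. In that fit 3 of the 12 markers were under 0.05 and 0 of them were lower, against 13.4% of all genes under 0.05 in either direction. Pcdh15, which forms the tip links of hair cells together with Cdh23, had -0.05 ± 0.12. B6 mouse 8 held its lowest level, 14.7 CPM against 23.0 to 28.5 CPM in the other B6 mice.

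**Figure D3:**
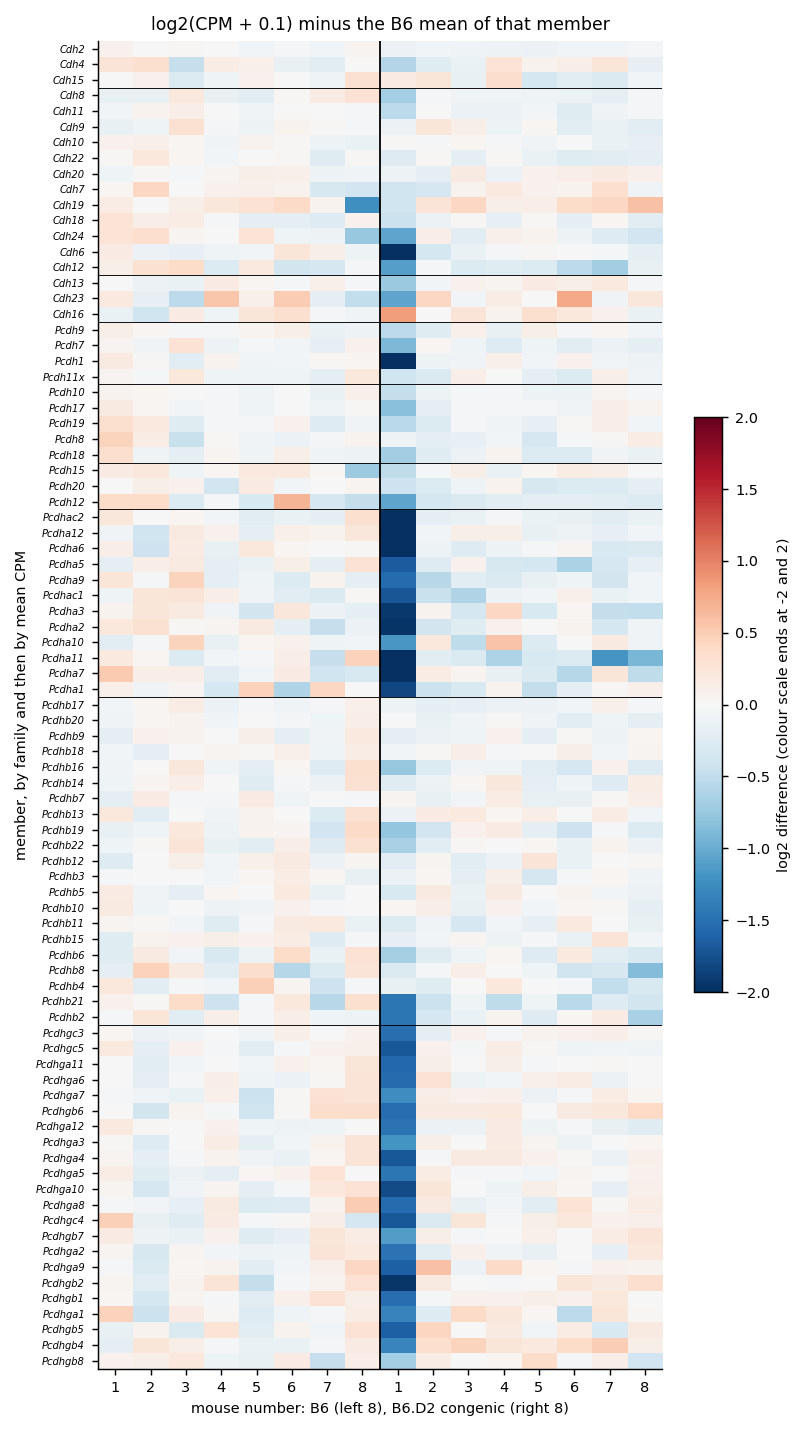
Heat map of log2(CPM + 0.1) minus the B6 mean of each of the 85 members (rows, by family and then by mean level) in the 16 mice (columns, mice 1 to 8 of B6 on the left and of B6.D2 congenic on the right). The column of B6.D2 congenic mouse 1 is dark blue through the Pcdha and Pcdhg rows and near white to pale blue through most Pcdhb rows.

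The 3 gene clusters lie side by side on chromosome 18 (mm10, from 36930285 at Pcdha1 to 37841873 at Pcdhgc5). Summed over the 12 Pcdha members, the level was 37.1, 40.1 and 46.9 CPM in B6 mice and 8.78, 36.5 and 40.6 CPM in congenic mice. The lowest value is congenic mouse 1, and the 7 other congenic mice lay between 34.9 and 40.6 CPM. For the 22 Pcdhg members the sums were 308, 350 and 387 CPM in B6 mice, 118 CPM in congenic mouse 1 and 352 to 363 CPM in the other congenic mice. For the 21 Pcdhb members they were 137, 151 and 167 CPM in B6 mice, 127 CPM in congenic mouse 1 and 139 to 152 CPM in the others. Congenic mouse 1 thus held 23.7% of the mean of the other congenic mice in Pcdha and 33.2% in Pcdhg, against 88.4% in Pcdhb. Its median log2 ratio to the other congenic mice was -2.10 over Pcdha, -1.59 over Pcdhg and -0.20 over Pcdhb, and it was the lowest congenic mouse for all 12 Pcdha and all 22 Pcdhg genes but for 10 of 21 Pcdhb genes. The excess of alignments from reads with more than 1 alignment and the tilt with exon length in this library are given above. Their part in these sums was not tested.

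**Figure D4:**
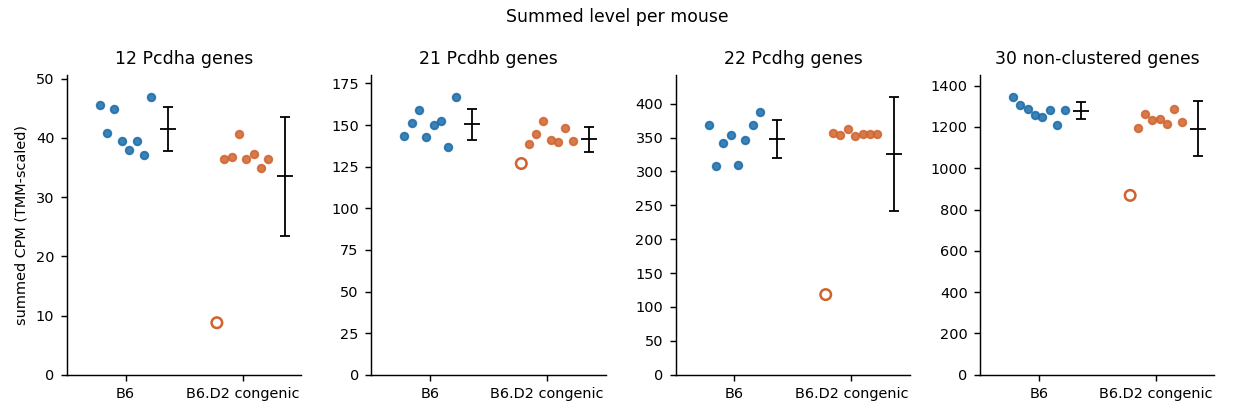
Summed TMM-scaled CPM (y axis, from 0) of the 12 Pcdha, 21 Pcdhb, 22 Pcdhg and 30 non-clustered members in each mouse, for B6 (blue) and B6.D2 congenic mice (orange, mouse 1 as an open circle), with the mean and SD of 8 mice in black. Congenic mouse 1 stands at 8.78 CPM for Pcdha and 118 CPM for Pcdhg, far under all other mice.

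Within Pcdha all 12 log2 fold changes were negative, with a median of -0.32, and without congenic mouse 1 they were negative for 11 of 12 with a median of -0.17. Pcdha11 had the smallest edgeR p-value of all members. It measured 1.10, 1.55 and 2.16 CPM in B6 mice and 0.220, 1.10 and 1.31 CPM in congenic mice. Congenic mice were all below the B6 median, 4 of them below the lowest B6 mouse. The fitted difference was -0.75 ± 0.24 (edgeR FDR = 0.385, exact permutation p = 0.00202) and -0.59 without congenic mouse 1 (edgeR FDR = 0.222), and it was alike in the lane pairs, at -0.73 and -0.77. Pcdha5 measured 2.08, 2.40 and 2.98 CPM in B6 mice and 0.690, 1.90 and 2.57 CPM in congenic mice, of which 6 were below the lowest B6 mouse. Pcdha5 had a log2 fold change of -0.43 ± 0.18 (edgeR FDR = 0.457, exact permutation p = 0.0109), and -0.30 without congenic mouse 1. Pcdha9 measured 1.79, 2.11 and 3.00 CPM in B6 mice and 0.690, 1.83 and 2.10 CPM in congenic mice, all of which were below the B6 median. Pcdha9 had a log2 fold change of -0.39 ± 0.17 (edgeR FDR = 0.476, exact permutation p = 0.0213), and the lane pairs gave -0.74 and -0.04.

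The most abundant Pcdha members were Pcdhac2, Pcdha12 and Pcdha6. Pcdhac2, 1 of the C-type isoforms that neurons express from both alleles, measured 16.8, 19.2 and 24.4 CPM in B6 mice and 3.73, 17.6 and 19.1 CPM in congenic mice. All 8 congenic mice were below its B6 median. Pcdhac2 had a log2 fold change of -0.31 ± 0.21 (edgeR FDR = 0.622, exact permutation p = 0.0409) and -0.16 without congenic mouse 1 (edgeR FDR = 0.360). Pcdha12 had -0.21 ± 0.22 and Pcdha6 -0.31 ± 0.20, and without congenic mouse 1 they had -0.05 and -0.16. The 2 C-type isoforms made up 49.1% to 56.04% of the Pcdha sum in B6 mice and 48.2% to 53.7% in congenic mice, with congenic mouse 1 at the lowest share. Here and in Pcdhb and Pcdhg, shares and the order of abundance rest on CPM not divided by exon length.

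Within Pcdhb 19 of 21 log2 fold changes were negative, with a median of -0.08, and leaving out congenic mouse 1 gave 18 of 21 and a median of -0.07. Pcdhb21 measured 1.36, 2.15 and 2.69 CPM in B6 mice and 0.690, 1.54 and 1.93 CPM in congenic mice. The congenic mice were all below the B6 median, with mouse 1 below every B6 mouse. For Pcdhb21 the log2 fold change was -0.49 ± 0.18 (edgeR FDR = 0.407, exact permutation p = 0.0208) and -0.38 without that mouse. Pcdhb16 measured 8.45, 9.94 and 12.7 CPM in B6 mice and 5.96, 8.63 and 10.8 CPM in congenic mice. The groups overlapped, with 3 congenic mice below the lowest B6 mouse. For Pcdhb16 the log2 fold change was -0.24 ± 0.11 (edgeR FDR = 0.476, exact permutation p = 0.0454), and -0.18 without congenic mouse 1. The most abundant members Pcdhb17, Pcdhb20 and Pcdhb9 had -0.08 ± 0.05, -0.10 ± 0.05 and -0.07 ± 0.07. For Pcdhb20 the exact permutation p was 0.0347 (edgeR FDR = 0.533), with 4 congenic mice below the lowest B6 mouse.

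Within Pcdhg the sign of most values rested on congenic mouse 1. With all mice 19 of 22 log2 fold changes were negative (median -0.08) and none was called. Without that mouse 3 of 22 were negative and the median was 0.03, in all 7 Pcdhgb genes the value was positive, and the clustered median as a whole went from -0.10 to -0.03. The most abundant members were the C-type isoforms Pcdhgc3 and Pcdhgc5. Pcdhgc3 measured 75.5, 82.7 and 89.1 CPM in B6 mice, 28.9 CPM in congenic mouse 1 and 72.2 to 89.8 CPM in the other congenic mice. Pcdhgc3 had a log2 fold change of -0.10 ± 0.15 with all mice and 0.02 without mouse 1. Pcdhgc5 moved likewise from -0.14 ± 0.17 to -0.01 and Pcdhga11 from -0.10 ± 0.16 to 0.03. The 3 C-type isoforms made up 45.4% to 49.8% of the Pcdhg sum in B6 mice and 44.7% to 49.0% in congenic mice, with congenic mouse 1 at 46.4%. Its composition by isoform type was therefore within the range of the other mice while its sum was not. Pcdhgb4, named after its value was seen, measured 2.93 to 3.96 CPM in B6 mice, 1.29 CPM in congenic mouse 1 and 3.62 to 4.74 CPM in the other congenic mice. Pcdhgb4 had a log2 fold change of 0.18 ± 0.18 with all mice and 0.31 without mouse 1 (edgeR FDR = 0.208), the lowest FDR of a member in that fit.

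The spread between B6 mice was larger for the members than for a typical gene. The coefficient of variation had a median of 13.5% over the members and 9.37% over all genes tested, and ran from 3.70% for Cdh2 to 33.8% for Pcdh12. The 2 sets were not matched for level, and the spread includes counting error, which was 1.923% for Cdh2 and 19.85% for Pcdh12. The part of level in the difference was not tested. In congenic mice the median over the Pcdhg genes was 27.8% with mouse 1 and 9.27% without it.

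Classical cadherins act through the proteins that bind their tails. Over all genes tested 5.14% were lower and 4.86% higher in congenic mice at an unadjusted p under 0.05, and the counts below are to be read beside these shares. Of 13 catenins and plakophilins tested, 3 were lower in congenic mice at that level and none was higher. The 3 were the catenin Ctnna2 (log2 fold change -0.10 ± 0.04, edgeR FDR = 0.437, exact permutation p = 0.000466), beta-catenin Ctnnb1 (-0.08 ± 0.04, FDR 0.491) and the desmosomal plakophilin Pkp1 (-0.65 ± 0.21, FDR 0.385). Ctnna2 measured 149.5 to 165 CPM in B6 and 129 to 150.2 CPM in congenic mice, so that its ranges overlapped narrowly. Pkp1 was a low gene, at 1.84 to 3.405 CPM in B6 and 0.694 to 2.92 CPM in congenic mice. Of 15 large and atypical cadherins tested 1 was lower, the giant cadherin Fat3 (-0.21 ± 0.09, FDR 0.476), and none higher. Their summed level was 1019 CPM in congenic mouse 1, against 1612 to 1871 CPM in B6 mice. Of 16 junction partners the actin-linked scaffold Mllt4 (-0.13 ± 0.06, FDR 0.494) and the cadherin-cleaving protease Adam10 (-0.09 ± 0.04, FDR 0.456) were lower and none higher. Of 17 effectors of protocadherins the WAVE complex subunit Abi2 (-0.12 ± 0.06, FDR 0.488) and the kinase Prkca (-0.23 ± 0.09, FDR 0.445) were lower and none higher. Of 17 regulators of the clustered genes, among them the cohesin subunit Rad21 and the methyltransferase Dnmt3a, none passed. Medians of the 5 lists lay between -0.13 and 0.03, that of the large cadherins being the lowest, and it was -0.04 without congenic mouse 1.

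Most listed markers of cortical excitatory neurons had lower values in congenic mice in these punches. The log2 fold change was negative for 16 of 17, and none passed at an FDR of 5%. Of the 17 genes 10 were lower at an unadjusted p under 0.05 and none higher, against 5.14% of all genes lower at that level. The median over the 17 was -0.48, and summed levels were 1015 to 1522 CPM in B6 and 775.5 to 1340 CPM in congenic mice. The vesicular glutamate transporter Slc17a7 ran from 294 to 507 CPM in B6 and from 171 to 425.5 CPM in congenic mice. A score over the 17 genes (mean standardized log2 CPM) ran from -0.32 to 1.26 in B6 mice and from -1.17 to 0.99 in congenic mice. When the score was added as a covariate, 1 of the 85 members, Pcdh18, was under 0.05, against 2.72% of all genes. The log2 fold change of Cdh12 then went from -0.42 to -0.17, that of Cdh22 from -0.15 to -0.03 and that of Pkp1 from -0.65 to -0.28. Those of Pcdha11 (-0.56), Pcdh20 (-0.19), Cdh2 (-0.07) and Pcdh18 (-0.30) also stayed negative, as did those of all 13 called members, and over all 85 71 of 85 values were negative with a median of -0.12. The score differs between the genotypes, and the part of cortical RNA in the values above was not tested further. Of the other marker lists, choroid plexus (10 genes), oligodendrocyte (10), astrocyte (8) and microglia (7) markers had no gene at an unadjusted p under 0.05. Oligodendrocyte precursors had 1 of 6 higher and hypothalamic and ventral forebrain markers 2 of 7 higher in congenic mice, and none was lower. Of all genes, 4.86% were higher at that level. Without congenic mouse 1 the precursors had 0 of 6 under 0.05 and the hypothalamic and ventral forebrain markers 2 of 7. Astrocyte markers then had 1 of 8 and microglia markers 1 of 7 under 0.05, both higher in congenic mice. In that fit 13.4% of all genes were under 0.05 in either direction.

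**Figure D5:**
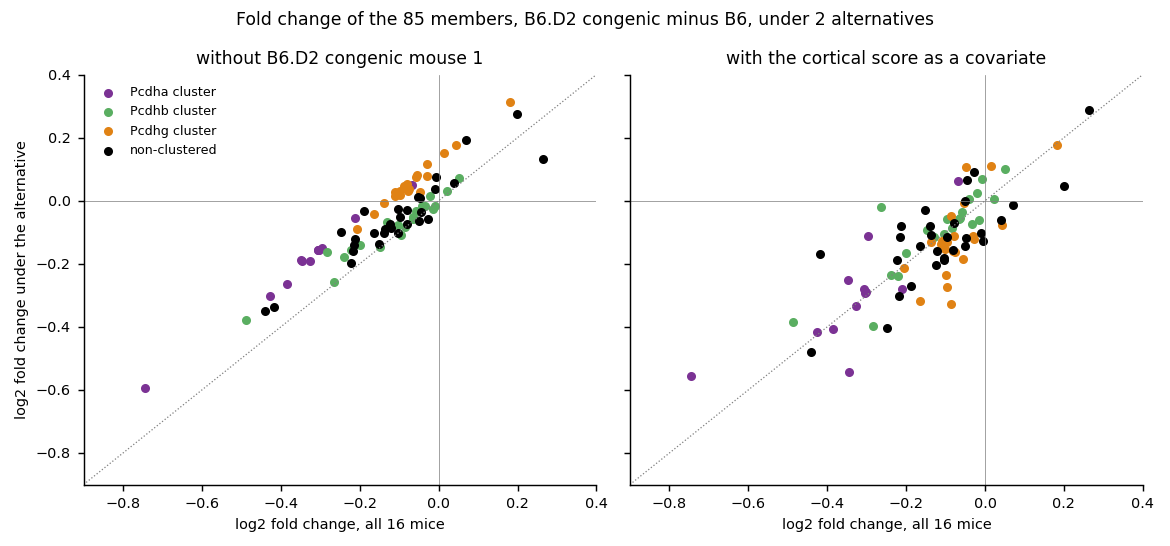
Log2 fold change (congenic minus B6) of the 85 members with all 16 mice (x axis) against the value without B6.D2 congenic mouse 1 (left) and with the cortical score as a covariate (right), colored by cluster, with a dotted line of equality. On the left all Pcdha and Pcdhg points lie above the line. On the right Cdh12, at -0.42 and -0.17, lies farthest above it.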

How the data were processed

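Striatal RNA of 16 mice was sequenced by the authors as single-end reads from a stranded kit, on 1 pair of lanes per mouse. Per the labels and the study's methods, reads were aligned with TopHat2 2.0.0 to mm10 and counted per gene with HTSeq 0.6.1p1 without regard to strand, so reads of antisense genes cannot be told apart. Raw counts per mouse and lane were deposited. Reads with more than 1 alignment or on more than 1 gene were not counted, so exons shared within the Pcdha and Pcdhg clusters give no counts. The authors also deposited results of their own edgeR comparison (fold changes, p-values and FDRs), not used here. Sources differ on punch diameter, age range and RNA kit.

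Counts of 31 lane files were summed per mouse (2 lane files of 1 mouse agreed within sampling noise in 15 mice, and B6 mouse 7 has 1). Genes were filtered with filterByExpr, scaled with TMM and fitted with glmQLFit and glmQLFTest (quasi-likelihood) in edgeR 4.0.16, with Benjamini-Hochberg adjustment over 15589 genes. The SE is the log2 fold change divided by the square root of F. The pipeline was tested on simulated data. Single genes were also tested by exact two-sided permutation of log2 CPM (prior count 0.5, smallest possible p 0.000155). At 19032826 or more counts per mouse, counting error alone gave a member's level in 1 mouse a coefficient of variation of 1.25% to 23.0% (median 6.28%), which exceeded the biological coefficient of variation of all genes (13.0%) in 15 of 85 members. Alternatives were other normalizations, filters and tests (DESeq2 1.42.0, edgeR's likelihood ratio test), 1 lane file per mouse, lane pair, mouse number or cortical score as a covariate, each lane pair alone and leaving out mice. Positions are mm10 (RefSeq), and exon lengths are from GENCODE on mm9.

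Members and gene lists were chosen with earlier results of these data known. Named are all non-clustered members, in each cluster the 3 with the highest mean CPM and those at an unadjusted p under 0.05, partner genes at that level (at most 8), and the 2 most abundant genes of a marker list where they bear on a result.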

Additional observations from a re-analysis of the deposited data

Results flagged for a closer look

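Of 106 groups of 8 mice examined (44 named members and 9 family sums in each genotype), 29 held a mouse whose gap to the nearest of the others exceeded Dixon's 95% critical value as a share of the group's range. Chance alone gives such a gap in about 5% of groups. In 24 of the 29 the mouse was B6.D2 congenic mouse 1, the library with the excess of alignments from reads with more than 1 alignment.

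Congenic mouse 1 was lowest for Pcdh1 at 11.16 CPM (other congenic mice 61.53 to 70.39), Pcdh7 at 49.67, Pcdh10 at 164.1, Pcdh17 at 56.79 and Pcdh12 at 0.4077 CPM. It was also lowest for Cdh6 at 1.254, Cdh8 at 44.21 and Cdh13 at 46.1 CPM, and highest for Cdh16 at 1.129 CPM. Among clustered genes its gaps were at Pcdhac2 (3.732 CPM), Pcdha12 (0.7212), Pcdha6 (0.5017), Pcdha9 (0.6899), Pcdhb21 (0.6899), Pcdhgc3 (28.85), Pcdhgc5 (23.39) and Pcdhga11 (6.46 CPM). Its summed levels stood apart for Pcdha (8.78 CPM), Pcdhg (118.3), delta-1 (179.8) and delta-2 protocadherins (255.4), the other non-clustered protocadherins (29.73), type II cadherins (245.5) and the other Cdh genes (47.63 CPM).

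The 5 other cases were all in B6 mice. Mouse 8 was lowest for Cdh19 (4.747 CPM) and Pcdh15 (14.73 CPM), and mouse 4 was lowest for Pcdh20 (12.32 CPM, the others 15.46 to 17.95). Mouse 1 was highest for Pcdh17 (115.5 CPM) and mouse 3 for Cdh9 (49.54 CPM). The causes were not tested.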

How the results depend on the processing

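The count of members at an unadjusted p under 0.05 was 12 or 13 with RLE or upper-quartile scaling, no filter or a filter on mean CPM, the likelihood ratio test, DESeq2 or lane pair as a covariate, and 9 with 1 lane file per mouse. The share of all genes under 0.05 was 8.81% to 10.35% in the former settings and 9.33% in the last. It was 1 with the cortical score as a covariate, 4 in the mice of lanes 5 and 6 and 5 in those of lanes 7 and 8, the last 2 with fewer mice in each fit. Leaving out 1 mouse gave 8 (without B6 mouse 1, against 8.98% of all genes) to 14 (without congenic mouse 4, against 10.5%). Leaving out B6 mouse 8 and congenic mouse 1, an alternative chosen after seeing the data, gave 16, against 12.8% of all genes. Of the 16, 13 were lower and 3 higher in congenic mice, and 12 were called with all mice. No setting gave a member at an FDR of 5%. The 13 called members kept their negative sign in 390 of 390 fits of 1 member under 1 setting, and 303 were under 0.05. The other named members were under 0.05 in 10 of 930. The called members were chosen by their p-value with all mice, and every setting uses the same mice or a part of them. These counts therefore show dependence on the processing and are not independent support for the calls. Median log2 fold changes without 1 mouse ran from -0.13 to -0.07 for non-clustered and from -0.13 to -0.03 for clustered members.

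With mouse number as a replicate block 9 members were under 0.05, against 8.83% of all genes. Same-numbered mice correlated at -0.115 to 0.364 in their deviations from the group means, over 0.1 in 3 of 8 pairs. The home cage of each mouse is not in the labels, so these correlations cannot show whether the numbers pair mice.

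Log2 fold changes changed sign for members that were not called. Within lanes 7 and 8 the value was 0.037 for Cdh18, -0.0068 for Cdh16, 0.038 for Pcdh19, 0.050 for Pcdh17, 0.028 for Pcdh9, 0.14 for Cdh4, 0.11 for Pcdh15, 0.23 for Cdh7, 0.088 for Cdh13 and 0.034 for Pcdhgc3. With the cortical score as a covariate the value was 0.00026 for Cdh10, -0.062 for Cdh20, 0.065 for Cdh9, -0.013 for Cdh23 and 0.092 for Cdh15. Within lanes 5 and 6 the value was -0.033 for Cdh20, 0.020 for Cdh9, -0.14 for Cdh23 and 0.24 for Cdh15. With B6 mouse 8 and congenic mouse 1 left out the value was 0.0044 for Cdh4, 0.067 for Cdh13, 0.034 for Pcdhgc3, 0.0041 for Pcdhgc5 and 0.066 for Pcdhga11. With 1 lane file per mouse the value was -0.064 for Cdh23. With upper-quartile scaling the value was 0.00075 for Cdh7 and 0.0043 for Cdh13. Without 1 mouse the ranges that crossed 0 were -0.091 to 0.0024 for Cdh9, -0.11 to 0.011 for Cdh4, -0.13 to 0.0096 for Pcdh15, -0.065 to 0.19 for Cdh23, -0.093 to 0.019 for Cdh15, -0.063 to 0.057 for Cdh7, -0.038 to 0.074 for Cdh13, -0.14 to 0.022 for Pcdhgc3 and -0.13 to 0.030 for Pcdhga11. The causes were not tested.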
